A study of Rattus norvegicus with 7 samples.

Results

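The miRNAs described here are the 93 rat miRNAs on the array whose catalogue number is 1000 or above, from miR-1188 to miR-3597. They were chosen by name alone, over both arms and all copies, and are 93 of the 677 miRNAs on the array. The other 584 carry lower numbers, up to 935, or are let-7 forms, and serve as the comparison. Liver RNA came from male adult Sprague-Dawley rats that ate, for 28 days, either control diet or diet with potassium perfluorooctanesulfonate (PFOS) at 50 mg/kg. PFOS is a fluorinated surfactant that persists in the body. RNA of 4 rats per group was hybridised, 1 rat per 1-colour Agilent miRNA array. The submitters left out 1 control array after quality control, so that 4 PFOS and 3 control arrays were analysed. Diet was freely available and the labels name no allele or transgene. The tissue was not sorted, so fewer cells of a type and less RNA per cell cannot be told apart. The rno prefix of each name is dropped.

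A miRNA is a short RNA cut from a hairpin precursor by Drosha and Dicer and loaded into Argonaute, where its seed, the bases near its 5′ end, pairs with target messenger RNAs. Either arm of the hairpin can be kept, and usually one arm accumulates while the other is degraded. miRNAs were numbered in the order in which they were catalogued: the abundant and widely conserved ones, such as let-7 and the hepatocyte miRNA miR-122, came early, and many high-numbered rat miRNAs were entered from sequencing at low read counts. A name in the catalogue is therefore not in itself a sign of a well-expressed miRNA. A mirtron is a miRNA whose hairpin is a spliced short intron and bypasses Drosha.

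RefSeq (build GRCr8) held a mature sequence under the same name for 76 of the 93 miRNAs, including all 17 that were detected on at least 1 array. The array predates that table, so a probe may have been designed to a slightly different form. The 13 miRNAs that were detected widely enough to be tested are shown because every value below belongs to one of them. Each is written 5′ to 3′ with the seed, bases 2 to 8, in capitals.
miR-1188-3p: cGAGGCUCcccaccaca
miR-1224: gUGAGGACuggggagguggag
miR-1249: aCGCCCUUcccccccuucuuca
miR-1949: uAUACCAGgaugucagcauaguu
miR-2985: uGUUAUAGuaucccaccuaccc
miR-3085: uCUGGCUGcuauggcccccuc
miR-3559-5p: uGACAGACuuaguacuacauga
miR-3561-5p: aCUGUGUCaauccaggguaga
miR-3562: uUGGGGCAguggcuggauggga
miR-3573-3p: uUCCUAACucugcccccucccau
miR-3584-5p: gGGAGGAGuccaggaggc
miR-3588: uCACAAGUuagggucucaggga
miR-3593-3p: cUUCAACCuuaagggggccuca

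No seed is shared among these 13, and none of the 17 detected members shares its seed with any other of the 693 rat mature miRNA names in the table. Of the 76 members with a sequence, 4 share a seed with another name, and all 4 were undetected: miR-1193-3p with miR-370-5p, miR-3065-5p with miR-7a-1-3p, miR-3573-5p with miR-423-5p, and miR-3596d with minor arms of the let-7 family and miR-98-3p. The detected members ranged widely in base composition, from 36.4% to 72.2% G and C with a median of 56.5%. The median over the 76 members with a sequence, detected or not, was 48.9%. Guanine made up 61.9% of miR-1224, 55.6% of miR-3584-5p and 54.5% of miR-3562. No comparison with the undetected members is drawn, since only 77.6% of them had a sequence.

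The members were detected less often than lower-numbered miRNAs on every array. A miRNA counted as detected when the scanner software flagged more than 50% of the unrejected spots of 1 or more of its probes as well above background. Over the 7 arrays, 17 members (18.3%) were detected at least once, 5 on all arrays, 12 on some and 76 on none. Among lower-numbered miRNAs 202 (34.6%) were detected at least once, 118 of them on all arrays. A detected member was therefore on only some of the arrays in 70.6% of cases, against 41.6% for lower-numbered miRNAs. Of these members, miR-1249, miR-1949, miR-3561-5p, miR-3562 and miR-3588 were detected on 6 arrays and missed only on control array 3. The shares without that array were not compared. Each miRNA of either set had 20 spots on an array, and 87 of the 93 members had 2 probes, as did 427 of the 584 others. These shares are descriptions, with no test, since the members were taken as a list.

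PFOS arrays 1 to 4 detected 12, 13, 14 and 14 of the 93 members, and control arrays 1 to 3 detected 15, 11 and 5. The member share was thus 14.2% ± 1.03 (SD, n = 4) on PFOS arrays and 11.1% ± 5.41 (SD, n = 3) on control arrays, and the groups overlapped, with control array 1 the highest of all. The same PFOS arrays detected 149, 169, 186 and 170 lower-numbered miRNAs, a mean share of 28.9% ± 2.59, and the control arrays 159, 132 and 126, a mean share of 23.8% ± 3.01. Control array 3 detected exactly the 5 members that every array detected, miR-1224, miR-2985, miR-3559-5p, miR-3584-5p and miR-3593-3p. Array brightness differed between the groups: before scaling, the median signal of the 123 miRNAs detected on all arrays was 226, 234, 326 and 244 on the PFOS arrays and 176, 133 and 137 on the control arrays. Its part in the number of miRNAs detected was not tested.

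**Figure D1:**
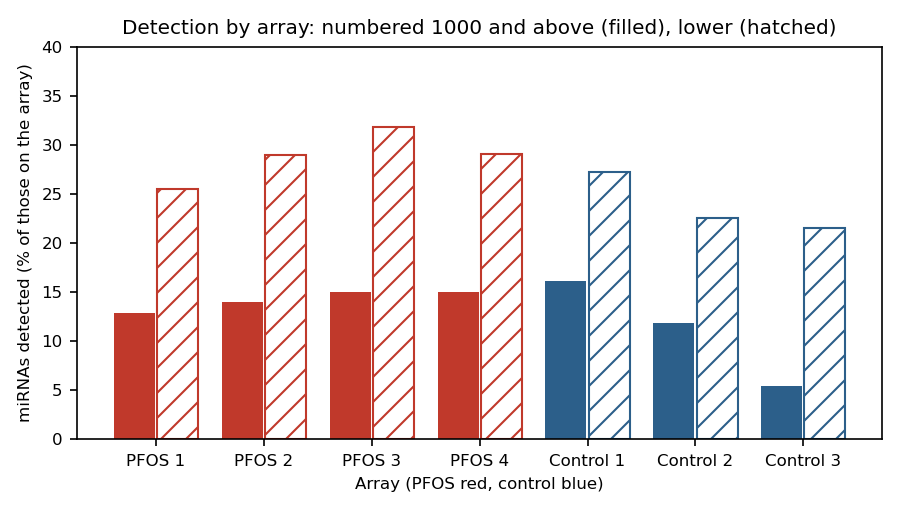
Bars give the percentage detected on each of the 7 arrays (PFOS red, control blue), filled for the 93 miRNAs numbered 1000 and above and hatched for the 584 lower-numbered ones. The filled bar lies below the hatched bar on 7 of 7 arrays, from 5.38% against 21.6% on control array 3 to 16.1% against 27.2% on control array 1.

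Detection was uneven within the members too. Of the 9 numbered from 1000 and below 2000, 5 were detected at least once, as were 1 of 2 from 2000 and below 3000, and 2 of 5 from 3000 and below 3500. Of the 77 numbered 3500 and above, 9 (11.7%) were detected. The array carried both arms of 21 member precursors. Neither arm was detected for 13 of these, a single arm for 8, and both arms for 0. The 5p arm alone was detected for miR-3559, miR-3561 and miR-3584, and the 3p arm alone for miR-1188, miR-1912, miR-3065, miR-3573 and miR-3593.

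The 76 undetected members were, by name, miR-1188-5p, miR-1193-3p, miR-1193-5p, miR-1912-5p, miR-2964, miR-3065-5p, miR-3074, miR-3120, miR-3541, miR-3542, miR-3543, miR-3545-3p, miR-3545-5p, miR-3546, miR-3547, miR-3548, miR-3550, miR-3551-3p, miR-3551-5p, miR-3552, miR-3553, miR-3554, miR-3555, miR-3556a, miR-3556b, miR-3557-3p, miR-3557-5p, miR-3558-3p, miR-3558-5p, miR-3559-3p, miR-3560, miR-3561-3p, miR-3563-3p, miR-3563-5p, miR-3564, miR-3566, miR-3567, miR-3568, miR-3569, miR-3570, miR-3571, miR-3572, miR-3573-5p, miR-3574, miR-3575, miR-3576, miR-3577, miR-3578, miR-3579, miR-3580-3p, miR-3580-5p, miR-3581, miR-3582, miR-3583-3p, miR-3583-5p, miR-3584-3p, miR-3585-3p, miR-3585-5p, miR-3586-3p, miR-3586-5p, miR-3587, miR-3589, miR-3590-3p, miR-3590-5p, miR-3591, miR-3592, miR-3593-5p, miR-3594-3p, miR-3594-5p, miR-3595, miR-3596a, miR-3596b, miR-3596c, miR-3596d, miR-3597-3p and miR-3597-5p. Of these, 68 had no kept spot well above background on any array and 8 had at least 1 such spot. Not well above background is a bound on the signal, and does not show that a miRNA was absent from the liver.

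Many members lie opposite another miRNA gene. Of the 76 with a sequence, 29 overlap a hairpin on the other strand of the genome, so that a mature sequence can be in part the reverse complement of a known miRNA. Of these 29, 3 (10.3%) were detected, on at most 2 arrays each, and 0 were tested. Of the other 47, 14 (29.8%) were detected and 13 were tested. Both of the following undetected members are shown with the liver miRNA they oppose, the pairs having been picked once the values were known.
miR-3591: aACACCAUugucacacucca
miR-122-5p: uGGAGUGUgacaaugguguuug
miR-3596a: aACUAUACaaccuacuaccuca
let-7a-5p: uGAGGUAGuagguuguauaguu
miR-3591 overlaps miR-122-5p, the main miRNA of hepatocytes, over 20 bases, and miR-3596a overlaps let-7a-5p over 22 bases. The normalised signal of miR-122 was between 57369 and 60192 on the 7 arrays and that of let-7a between 3935 and 4429. miR-3591 and miR-3596a did not meet the detection rule on any array. On PFOS array 2, where each was highest, the unscaled signal was 21.8 for miR-3591 and 2.89 for miR-3596a. miR-3556a, also undetected, opposes miR-29a-3p, which read between 2211 and 2895.

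The detected members opposite another miRNA were miR-3065-3p, miR-3544 and miR-3549, and none met the rule for testing, which was detection in all 3 control livers or in 3 or more PFOS livers. They are shown because they were the detected ones among the 29.
miR-3065-3p: uCAGCACCaggauauuguugggga
miR-3544: aACUCCUGcaugacgccguuccc
miR-3549: aUCUUGCCcgcaaagaccc
miR-3065-3p, opposite miR-338-5p, was detected on 1 PFOS array. miR-3549, opposite miR-193a-5p, was detected on 1 array of each group. miR-3544, opposite miR-337-5p, was detected on 1 of 3 control arrays and on no PFOS array. Its normalised signal was 14.6, 12.2, 12.2 and 15.8 on PFOS arrays 1 to 4 and 32.2, 30.1 and 26.5 on control arrays 1 to 3. Its unscaled signal was 12.8, 17.7, 12.5 and 19.8 on the PFOS arrays and 25.3, 17.9 and 22.1 on the control arrays, which overlapped. These values are not well above background on 6 of the 7 arrays, so no fold or test is given. The remaining untested member, miR-1912-3p within the span of the serotonin receptor gene Htr2c, was seen above background in 2 PFOS livers and in no control liver. The lower bound on its fold, PFOS over control, was 0.67, and a lower bound under 1 gives no direction.

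Of the 13 tested members, 0 passed an adjusted p of 0.05 between PFOS and control livers (limma with Benjamini-Hochberg adjustment over all 175 tested miRNAs, of which 0% passed in either direction). At an unadjusted p under 0.05, 5 members were lower in PFOS livers, against 10.9% of all 175 tested miRNAs, and 0 were higher, against 8.57%. The number of members at an unadjusted p under 0.05, in either direction, was 2 of 10 tested without PFOS array 2, 2 of 11 without PFOS array 4 and 3 of 11 without PFOS array 3. Leaving out these arrays also changed which members met the rule for testing: miR-3573-3p was tested in none of the 3 fits, and miR-3085 only without PFOS array 3. Among all 13 members the number was 0 with scaling to the 75th percentile over all miRNAs and with loess at equal weights. All PFOS arrays lay below all control arrays for 4 members, miR-1249, miR-2985, miR-3573-3p and miR-3085, against 9.71% of all tested miRNAs, and above them for 0 members, also against 9.71%. The log2 fold change was negative for 8 of 13 members, against 54.3% of all tested miRNAs. The median log2 fold change was -0.37 over the members, from -0.90 to 0.51, and -0.02 over all tested miRNAs. The members' median was -0.16 without PFOS array 4, where 11 members met the rule for testing. It was -0.092 with quantile normalization, -0.056 with scaling to the 75th percentile over all miRNAs and -0.044 in the deposited value table. Sizes in the deposited table do not compare directly with those of the main fit. The log2 fold change there was -0.23 for miR-2985, against -0.73 in the main fit, and -0.58 for miR-1224, against -0.51. Dim miRNAs had a lower median as well. Over the 44 tested miRNAs of lowest mean signal the median was -0.19, with 38 lower-numbered miRNAs at -0.13 and 6 members at -0.45. The part of signal strength in the members' median was not tested.

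The values on each array follow, in normalised array units, which compare the same miRNA between arrays and not one miRNA with another. miR-2985 lies at chr2:168254526-168254547 on the minus strand of GRCr8, within the span of Gria2, which encodes an AMPA receptor subunit. Its signal was 46.1, 46.7, 35.8 and 42.5 on PFOS arrays 1 to 4 and 82.2, 63.9 and 67.3 on control arrays 1 to 3. Every PFOS liver lay below every control liver. The log2 fold change was -0.73 (SE 0.14, n = 4 and 3, limma, adjusted p = 0.131), the smallest unadjusted p of the members at 0.00126. The arrays lay in 2 rows of a single slide. The first held PFOS arrays 1 and 2 and control array 1, and the second held the rest. Within these rows the difference was -0.83 and -0.75, the first resting on 1 control liver. With slide row fitted as a block, miR-2985 was lower in PFOS livers, with a log2 fold change of -0.78 (limma, adjusted p = 0.0259). That fit called 4 of 175 tested miRNAs, 3 higher in PFOS livers and 1 lower, and miR-2985 was the single member called.

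miR-3085 is annotated outside any gene span, at chr1:251038197-251038217 on the minus strand. On the PFOS arrays it read 30.5, 29.0, 15.9 and 25.9, and on the control arrays 49.6, 46.6 and 41.6. The groups were apart, and PFOS array 3 was the lowest. Its log2 fold change of -0.90 (SE 0.24, limma, adjusted p = 0.131) was the most negative of the 13. miR-3573-3p lies within the span of Efnb1, which encodes the membrane ligand ephrin-B1, at chrX:68299322-68299344 on the plus strand. It read 26.2, 19.5, 20.5 and 20.6 on the PFOS arrays and 36.7, 34.9 and 27.1 on the control arrays. The highest PFOS liver and the lowest control liver nearly touched, and the log2 fold change was -0.60 (SE 0.15, limma, adjusted p = 0.131). It was detected on 3 of 4 PFOS arrays and on 1 of 3 control arrays, so most of the control values were not well above background and the size of the fold is uncertain.

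miR-1249, a miRNA with a run of cytosines after its seed, lies within the span of Kiaa0930 at chr7:117955547-117955568 on the minus strand. The PFOS arrays gave 31.5, 24.8, 28.3 and 30.6 and the control arrays 40.4, 47.6 and 34.7. These groups did not overlap either, and the log2 fold change was -0.50 (SE 0.14, limma, adjusted p = 0.131). Detection was on 4 of 4 PFOS arrays and 2 of 3 control arrays for miR-1249, and on 3 of 4 and 2 of 3 for miR-3085. Within the slide rows the PFOS minus control differences were -0.53 and -0.47 for miR-1249, -0.74 and -1.12 for miR-3085, and -0.70 and -0.58 for miR-3573-3p. All were negative in both rows, of which the first held 1 control liver. With normexp background correction, which here added 50 units to every spot, these 3 and miR-2985 were among 22 of 175 miRNAs past the adjusted threshold. Their log2 fold changes were smaller, at -0.16 for miR-1249, -0.22 for miR-3085, -0.18 for miR-3573-3p and -0.23 for miR-2985. The part of the added units in these sizes and calls was not tested. Scaling was also tried to control probes taken to be the labelling spike-in, which the labels do not name. Their signal itself differed between the groups, from 7784 to 12938 on PFOS arrays and from 4314 to 4425 on control arrays. On that scale the median of all tested miRNAs was -0.40, and 4 of 175 passed, all lower in PFOS livers. Among them were all of these members but miR-3085. With loess at equal weights for all miRNAs the log2 fold change turned to 0.26 for miR-1249 and 0.51 for miR-3085.

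miR-1224 is a mirtron, spliced from a short intron of Vwa5b2, and lies at chr11:93811355-93811375 on the minus strand. It was detected on all 7 arrays, at 469, 332, 265 and 348 on the PFOS arrays and 488, 562 and 441 on the control arrays. PFOS array 1 lay above control array 3, so that the groups overlapped by that pair. The log2 fold change was -0.51 (SE 0.20, limma, unadjusted p = 0.0384, adjusted p = 0.230), and it was the fifth member below an unadjusted 0.05. miR-3593-3p, annotated outside any gene span, read 58.3, 51.6, 36.6 and 49.1 on the PFOS arrays and 57.2, 68.0 and 60.1 on the control arrays. The groups overlapped, again through PFOS array 1, and its log2 fold change was -0.35 (SE 0.17, limma, adjusted p = 0.342).

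miR-1188-3p read 33.9, 26.3, 24.1 and 15.0 on the PFOS arrays and 35.2, 33.4 and 24.7 on the control arrays, with overlapping groups (log2 fold change -0.37, SE 0.29, limma, adjusted p = 0.526). It was detected on 3 of 4 PFOS arrays and on 1 of 3 control arrays, so most of its control values were not well above background. miR-3588, from a long noncoding RNA span, read 62.0, 31.0, 27.5 and 18.8 on the PFOS arrays and 48.7, 59.5 and 25.0 on the control arrays. The PFOS livers alone covered a wider range than the controls, and its log2 fold change was -0.40 (SE 0.47, limma, adjusted p = 0.724). miR-1949, within the span of the nuclear matrix protein gene Matr3, read 55.1, 30.1, 25.9 and 30.7 on the PFOS arrays and 36.7, 31.4 and 25.1 on the control arrays. PFOS array 1 stood highest and the other 3 lay among the controls (log2 fold change 0.14, SE 0.28, limma, adjusted p = 0.906).

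**Figure D2:**
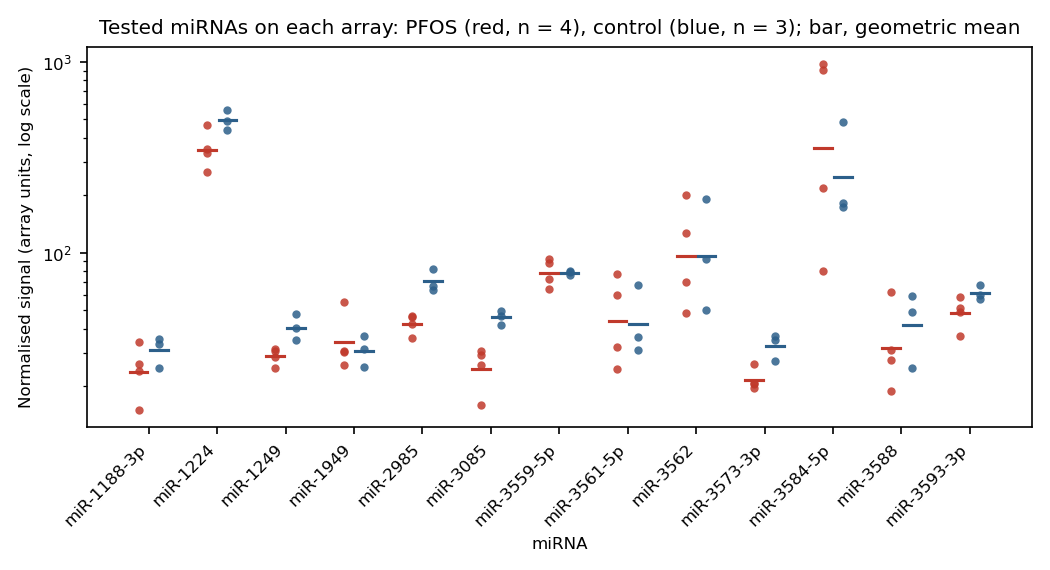
Points give the normalised signal of each of the 13 tested miRNAs on each array, on a log axis (PFOS red, n = 4, control blue, n = 3), and horizontal bars give the geometric mean of the group. The red points all lie below the blue points for miR-3085, miR-1249, miR-2985 and miR-3573-3p, and miR-3584-5p ranges from 80.5 to 972 among the PFOS arrays alone.

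The other 4 tested members had overlapping groups and log2 fold changes from 0.00 to 0.51, and differed widely in how much they varied between rats. miR-3559-5p, within the span of the palmitoyltransferase gene Zdhhc15, read 64.8, 72.7, 92.5 and 87.8 on the PFOS arrays and 78.9, 76.2 and 80.3 on the control arrays. The controls lay inside the PFOS range, and the log2 fold change was 0.00 (SE 0.14, limma). miR-3561-5p read 77.0, 24.5, 60.4 and 32.1 on the PFOS arrays and 36.1, 67.6 and 30.8 on the control arrays, a log2 fold change of 0.05 (SE 0.48). Each group held both high and low livers.

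miR-3562, within the span of the centrosome gene Cep131, read 200, 48.1, 127 and 70.1 on the PFOS arrays and 92.5, 192 and 50.2 on the control arrays. Here too each group spanned the whole range, and the log2 fold change was 0.00 (SE 0.63). miR-3584-5p, the guanine-rich miRNA within the span of Itprip at chr1:256727582-256727599 on the minus strand, varied most among the members. Its signal was 218, 80.5, 908 and 972 on PFOS arrays 1 to 4 and 485, 183 and 173 on control arrays 1 to 3. PFOS arrays 3 and 4 stood above all controls, while PFOS array 2 stood below them. The log2 fold change was 0.51 (SE 0.97, limma, adjusted p = 0.894). Within slide rows the difference was -1.87 in the first, which held 1 control liver, and 2.40 in the second. Its spread within groups, an SD of 1.44 on the log2 scale, was the second largest among the 175 tested miRNAs. The median within-group SD was 0.34 over the 13 members and 0.18 over the 162 lower-numbered miRNAs. Among the 44 tested miRNAs of lowest mean signal it was 0.38 over 6 members and 0.26 over 38 lower-numbered miRNAs. The part of signal strength in this spread was not tested.

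Without scaling between arrays, the sign of the difference turned for 6 of the 13 members. Without scaling, PFOS arrays were brighter, and the median PFOS minus control difference over all tested miRNAs was 0.70 on the log2 scale. The corresponding median over the members was 0.39, and 11 of 13 were positive. The unscaled difference was -0.01 for miR-2985, -0.11 for miR-3085, 0.18 for miR-3573-3p and 0.25 for miR-1249. The unscaled signal of miR-2985 was 44.0, 59.2, 55.2 and 54.1 on the PFOS arrays and 66.6, 41.7 and 53.7 on the control arrays, which overlapped. For miR-1224 it was 437, 420, 400 and 435 on the PFOS arrays and 408, 363 and 369 on the control arrays. Those 7 values span 1.20-fold, the least of the 123 miRNAs detected on all arrays, whose median span was 2.49-fold. miR-3593-3p spanned 1.51-fold and miR-2985 1.60-fold, the third and the fifth narrowest. miR-3559-5p spanned 2.84-fold, and miR-3584-5p, the second widest, 14.2-fold. Whether a narrow unscaled span belongs to the miRNA or to its probes was not tested.

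**Figure D3:**
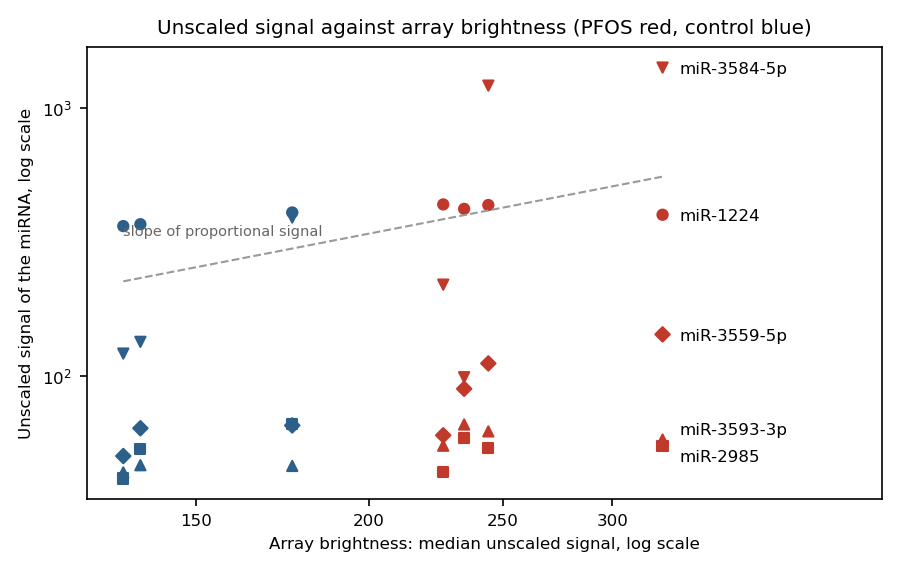
The unscaled signal of the 5 members detected on all arrays is plotted against the median unscaled signal of its array, both on log axes (PFOS red, control blue), with a dashed line of the slope that a signal proportional to array brightness would have. miR-1224 stays between 363 and 437 while the array median goes from 133 to 326.

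After scaling, the probes of each tested member gave the same direction. All 13 tested members had 2 probes each, and the PFOS minus control difference had the same sign in both for 13 of 13. However, 1 probe of miR-1949 was detected on 0 arrays, with an unscaled signal from 3.37 to 12.5. For miR-3559-5p the 2 differences were small, 0.064 and 0.017. Without PFOS array 3, the probes matched in sign for 10 members. Among lower-numbered tested miRNAs with 2 probes above the floor, 111 of 131 (84.7%) had probes of the same sign, and 19 of 21 (90.5%) did among the 44 tested miRNAs of lowest mean signal. The difference was -0.63 and -0.70 in the probes of miR-2985, -0.49 and -0.48 in those of miR-3573-3p, -0.74 and -0.71 in those of miR-3085, and -0.30 and -0.53 in those of miR-1249. For miR-3584-5p it was 0.59 and 0.58, and both probes put the 7 arrays in the same order. The probes agreed on the highest array for 13 of the 17 detected members, on the lowest for 9 and on the whole order for 3. Both probes of a miRNA read the same RNA on the same array, so they are no replicates of the diet. Both were also divided by the same array factor, 0.90 to 1.62 on PFOS arrays and 0.67 to 0.83 on control arrays. The part of this shared factor in the matching signs was not tested.

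**Figure D4:**
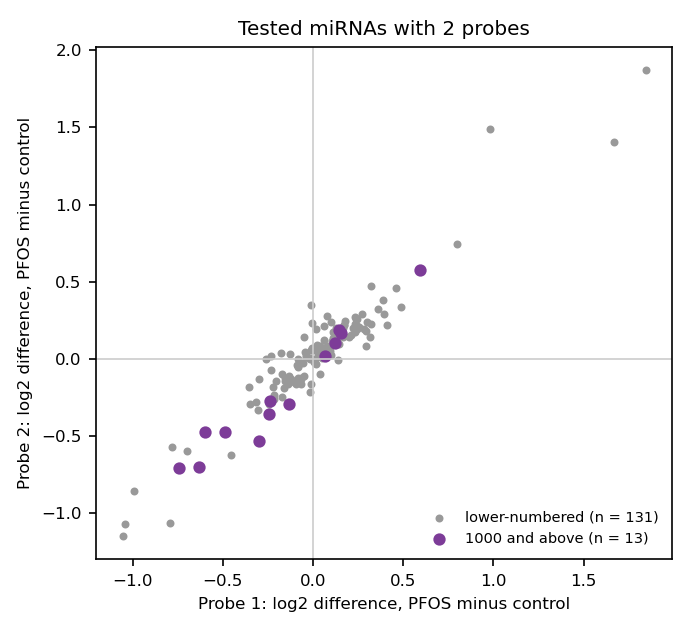
Each point is a tested miRNA with 2 probes, placed by the PFOS minus control difference in log2 signal of one probe and of the other (purple, 13 miRNAs numbered 1000 and above; grey, lower-numbered). All 13 purple points lie in the lower left or upper right part, where the signs match.

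Of the 17 detected members, 11 lie within the span of a protein-coding gene, 1 within that of a long noncoding RNA only, and 5 outside both, by RefSeq. Gene spans were matched by position without regard to strand, so a member may lie antisense to the gene named. The RNA of these genes was not measured on the miRNA arrays. The hepatocyte markers miR-122, miR-122*, miR-192 and miR-194 were detected on all 7 arrays, with a summed normalised signal from 64413 to 67167 on PFOS and from 65825 to 66836 on control arrays. The neuronal markers miR-124 and miR-9 were detected on none. Of the 4 stellate cell markers, 2 were detected on all arrays, while miR-145 was detected on 3 arrays and miR-214 on 4. Of the muscle markers 2 of 3 were undetected throughout. The 5 epithelial markers, 2 of them seen on every array and 2 never, summed to between 323 and 560 on PFOS arrays and between 87.8 and 212 on control arrays, while 4 leukocyte, 2 endothelial and 2 erythroid markers were on all arrays with overlapping sums. The part of bile duct cells in the members' values was not tested.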

How the data were processed

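Spot intensity came from 7 one-colour scans on a single slide, made by Feature Extraction 10.7.3.1 per the file headers. The processed signal is background-subtracted and not scaled between arrays, per the file headers, and other columns hold flags. The authors deposited a table of log2 values normalized by cyclic lowess, per the labels, which have array medians of 5.48 to 5.51 and no centring per miRNA. They served as an alternative. From the intensity values, outlier-flagged spots were dropped from 13540 non-control spots, spots were averaged per probe (1644), and probes were summed per miRNA. Arrays were scaled to the 75th percentile, taken over the 123 miRNAs that every array detected. Values were floored at 12.1 (the 1st percentile of detected values) and logged, and cyclic loess (span 0.7, 3 iterations, weight on those 123) followed.

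PFOS was compared with control by lmFit and eBayes (limma 3.58.1, R 4.3.3), adjusted over 175 miRNAs at 0.05. The fit was tested on simulated data. Reading used jsonlite 2.0.0 and data.table (version 1.17.8), and plotting used pandas 2.3.3 with matplotlib 3.10.9 (Python 3.11.15). Every tested member was named with all its values, detected untested members with their flags, and others without values. The exceptions were miR-3591 and miR-3596a, given with 1 unscaled value each. Values of miR-3544 on each array and the pairs with miR-122 and let-7a were added once values were known. The members and lists were chosen with earlier results of these data known. Alternatives changed the scaling, background, probe summary, floor, detection rule, threshold and slide row, and dropped arrays singly. Each rat gave 1 array, and 4 against 3 arrays limit the precision. Saturated spots numbered 0. The span of the authors' lowess was not given in the sources used here.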

Additional observations from a re-analysis of the deposited data

How the results depend on the processing

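The 0 members called became 4 with normexp background correction (miR-3085, miR-1249, miR-2985 and miR-3573-3p), 3 with labelling spike-in scaling (miR-1249, miR-2985 and miR-3573-3p; the probes' role is not named in the labels, and their mean signal was 9548 on PFOS and 4373 on control arrays), 1 with miRNAs detected on at least 1 array admitted (miR-3544, which entered through 1 control array, the group where it is high, so that this call is no evidence of a difference), 1 with a block for slide row (miR-2985), and 1 with no scaling between arrays (miR-1949), an alternative chosen after seeing the data. Over all tested miRNAs the calls went from 0 to 22, 4, 1, 4 and 52 under these, 9 in the deposited value table and 3 with the 75th percentile over all miRNAs. Spike-in scaling moved the median of all tested miRNAs to -0.40, no scaling to 0.69 and the 75th percentile over all miRNAs to 0.25. Leaving out each array in turn left 10 to 13 members tested and called 0 to 0 members. The median log2 fold change was then from -0.44 to -0.16, against 0.39 with no scaling. Probes matched in sign for 10 members (without PFOS array 3) to 13 members (without PFOS array 2). Without PFOS array 2 only 10 members met the rule for testing, so this count is not limited to the members tested in each fit. The mean member share detected, 12.9%, was 12.4% to 14.2% without an array and 19.2% both with any kept spot and with the gene detected flag.

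Signs turned for single members as follows, and the cause was not tested. With no scaling the log2 fold change was 0.39 for miR-1188-3p, 0.16 for miR-1224, 0.25 for miR-1249, 0.18 for miR-3573-3p, 0.38 for miR-3588 and 0.40 for miR-3593-3p. With spike-in scaling it was -0.15 for miR-1949, -0.40 for miR-3559-5p, -0.27 for miR-3561-5p and -0.33 for miR-3562. With loess at equal weights it was 0.26 for miR-1249, 0.51 for miR-3085, -0.58 for miR-3561-5p and -1.50 for miR-3562. With normexp it was -0.031 for miR-1949, -0.017 for miR-3561-5p and -0.023 for miR-3562, and in the deposited table -0.0068 for miR-3559-5p. Leaving out an array gave -0.037 to 0.32 for miR-1949, -0.093 to 0.089 for miR-3559-5p, -0.14 to 0.38 for miR-3561-5p and -0.44 to 0.49 for miR-3562. miR-2985 stayed below 0 in all 20 settings run, from -1.10 to -0.01, with an adjusted p from 0.0259 to 0.997. miR-3584-5p stayed above 0, from 0.02 to 1.24. No paired analysis was possible because replicate numbers only follow the order of the samples and pair no rats. Signals of many members lay near background, where the number of arrays and the floor limit what can be told apart.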
